A study of Homo sapiens with 6 samples.

Results

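The ETS factor loci described here are the genes FLI1, ETS1, ERG, ETS2 and ETV6, and their members are the accessible regions (peaks) that overlap 5 fixed windows of hg19, the human genome build of the deposited lists. The windows held 117 of the 112610 peaks of the shHMGA1 list and 140 of the 127153 peaks of the control list. The assay was ATAC-seq, where a transposase (Tn5) cuts and tags accessible DNA so that open sites are sequenced most. In the shHMGA1 group were 3 samples of DAMI cells, a human leukaemia line that the labels call MPN/AML, infected with a lentivirus carrying a short hairpin against HMGA1. The control group was 3 samples of the same line infected with a control lentivirus. HMGA1 bends and organises chromatin through contacts with AT-rich stretches. The peak lists do not measure its transcript or protein, so they do not check the labels.

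Only 1 peak list stands for the 3 samples of a group, and single samples have no values. No replicate stands behind any difference below, no test was possible, and no p-value is given. Read depth is unknown, and differences in depth or in how samples were combined cannot be told apart from the silencing. In a bulk sample, fewer cells with an open site and less opening per cell cannot be told apart either. All intervals are exact 95% binomial intervals unless named otherwise. They cover counting error only, and neighbouring peaks are not independent.

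ETS factors share a DNA-binding domain that reads a GGAA core. FLI1 and ERG are close relatives, as are ETS1 and ETS2, and 11q and 21q each carry 1 gene of each kind side by side. In 11q24.3, FLI1 activates genes of megakaryocytes, the cells that make platelets, and its loss with the end of 11q gives low platelet counts in people. ETS1, its neighbour, acts in lymphoid and endothelial cells and is a target of Ras and MAP kinase signalling. In 21q22.2, ERG maintains blood stem cells and acts in megakaryocytes, and ETS2 is the Ras-responsive partner next to it. ETV6, in 12p13.2, is a repressor needed in blood stem cells and for platelet formation, and is often rearranged in leukaemia.

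The RefSeq gene IDs are 2313 for FLI1, 2113 for ETS1, 2078 for ERG, 2114 for ETS2 and 2120 for ETV6. The windows were chr11:128540001-128700000 for FLI1, chr11:128310001-128480000 for ETS1, chr21:39730001-40050000 for ERG, chr21:40160001-40215000 for ETS2 and chr12:11780001-12060000 for ETV6. They measured 160, 170, 320, 55 and 280 kb. In the RefSeq gene order no protein-coding gene lies between ETS1 and FLI1 or between ERG and ETS2. Positions of exons and start sites on hg19 were not used, so no peak is called a promoter, an intron or an enhancer.

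Start-site sequences of ERG, ETS2 and ETV6 were read from RefSeq on GRCh38.p14, a different build from the peaks, and none of the peaks was placed on them. They cover 250 bases before and 50 after a gene's start, and are shown because HMGA1 binds AT-rich DNA and ETS factors bind GGAA, so base composition and GGAA cores are the features of interest. FLI1 and ETS1 had no entry. Capitals mark GGAA or its reverse complement TTCC, with overlapping matches joined. Of 35114 promoters of the same length, 95.5% held at least 1 such core, so its presence is common.
ERG, chr21:38660618-38660917, minus strand: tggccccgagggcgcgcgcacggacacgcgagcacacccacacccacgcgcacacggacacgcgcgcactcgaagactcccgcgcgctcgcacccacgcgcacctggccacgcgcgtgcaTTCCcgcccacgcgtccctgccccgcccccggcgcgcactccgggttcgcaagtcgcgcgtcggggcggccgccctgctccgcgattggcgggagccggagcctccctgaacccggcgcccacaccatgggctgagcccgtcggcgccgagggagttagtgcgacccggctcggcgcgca
ERG, chr21:38498455-38498754, minus strand: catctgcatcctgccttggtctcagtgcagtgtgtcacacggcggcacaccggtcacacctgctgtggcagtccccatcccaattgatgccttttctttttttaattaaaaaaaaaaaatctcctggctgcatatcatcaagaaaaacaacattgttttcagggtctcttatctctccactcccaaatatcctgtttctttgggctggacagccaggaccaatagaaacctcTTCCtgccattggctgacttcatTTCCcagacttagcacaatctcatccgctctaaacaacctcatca
ETS2, chr21:38805679-38805978, plus strand: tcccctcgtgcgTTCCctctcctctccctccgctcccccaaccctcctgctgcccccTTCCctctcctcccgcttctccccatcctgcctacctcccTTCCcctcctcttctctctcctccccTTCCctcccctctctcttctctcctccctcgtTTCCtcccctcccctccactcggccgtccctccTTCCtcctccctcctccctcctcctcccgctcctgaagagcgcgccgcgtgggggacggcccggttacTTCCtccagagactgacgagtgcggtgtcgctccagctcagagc
ETV6, chr12:11649424-11649723, plus strand: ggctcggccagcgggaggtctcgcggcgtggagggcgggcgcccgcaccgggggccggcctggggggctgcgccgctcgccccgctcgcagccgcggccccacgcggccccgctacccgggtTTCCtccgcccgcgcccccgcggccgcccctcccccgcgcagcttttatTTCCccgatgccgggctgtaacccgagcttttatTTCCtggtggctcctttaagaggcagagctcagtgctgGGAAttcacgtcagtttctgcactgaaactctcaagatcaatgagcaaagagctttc
The first ERG start was 23.0% A and T, with no run of A and T longer than 3 bases, and held 1 core. The other ERG start shown was 54.3% A and T and contained an unbroken run of 24 A and T bases, a length that 0.393% of promoters reached. ETS2 had 7 cores in the window shown, a number reached by 8.29% of promoters. Its other window, not shown, had 4 cores, which 46.0% of promoters reached. Of the ERG windows not shown, 1 was 61.3% A and T with 6 cores, a number reached by 16.1%. Another, chr21:38498428-38498727, overlapped the second ERG window shown and held 2 cores. ETV6 had 4 cores and 31.0% A and T, where the median promoter had 3 cores and 41.3%. The longer site CCGGAA, or TTCCGG on the other strand, was in none of the 7 windows listed for these 3 genes and in 17.2% of all promoters.

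All 5 windows held more peaks per length than the whole lists did, with 3.64 per 100 kb in shHMGA1 and 4.11 in control, and FLI1 and ETS1 held the most. At FLI1 the shHMGA1 list had 37 peaks and the control list 42, or 23.1 and 26.2 per 100 kb. At ETS1 they had 37 and 53, or 21.8 and 31.2 per 100 kb. ERG, whose window is the longest, had 16 and 19 peaks, 5.0 and 5.94 per 100 kb. That was fewer than over all of chromosome 21, with 6.41 in shHMGA1 and 7.15 in control. ERG thus exceeded the whole lists but not its own chromosome. ETS2 had 10 and 9 peaks in the shortest window, 18.2 and 16.4 per 100 kb. ETV6 had 17 and 17, 6.07 per 100 kb in each list. The ratio of shHMGA1 to control peaks was 0.881 at FLI1, 0.698 at ETS1 (interval 0.446 to 1.08), 0.842 at ERG, 1.11 at ETS2 (0.406 to 3.09) and 1.00 at ETV6, and each of the 5 intervals included the whole-list ratio of 0.886. The order of the loci depended on the setting: among peaks above the joined median summit of both lists the ratio was 0.696 at FLI1, 0.812 at ETS1 and 0.692 at ETV6.

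**Figure D1:**
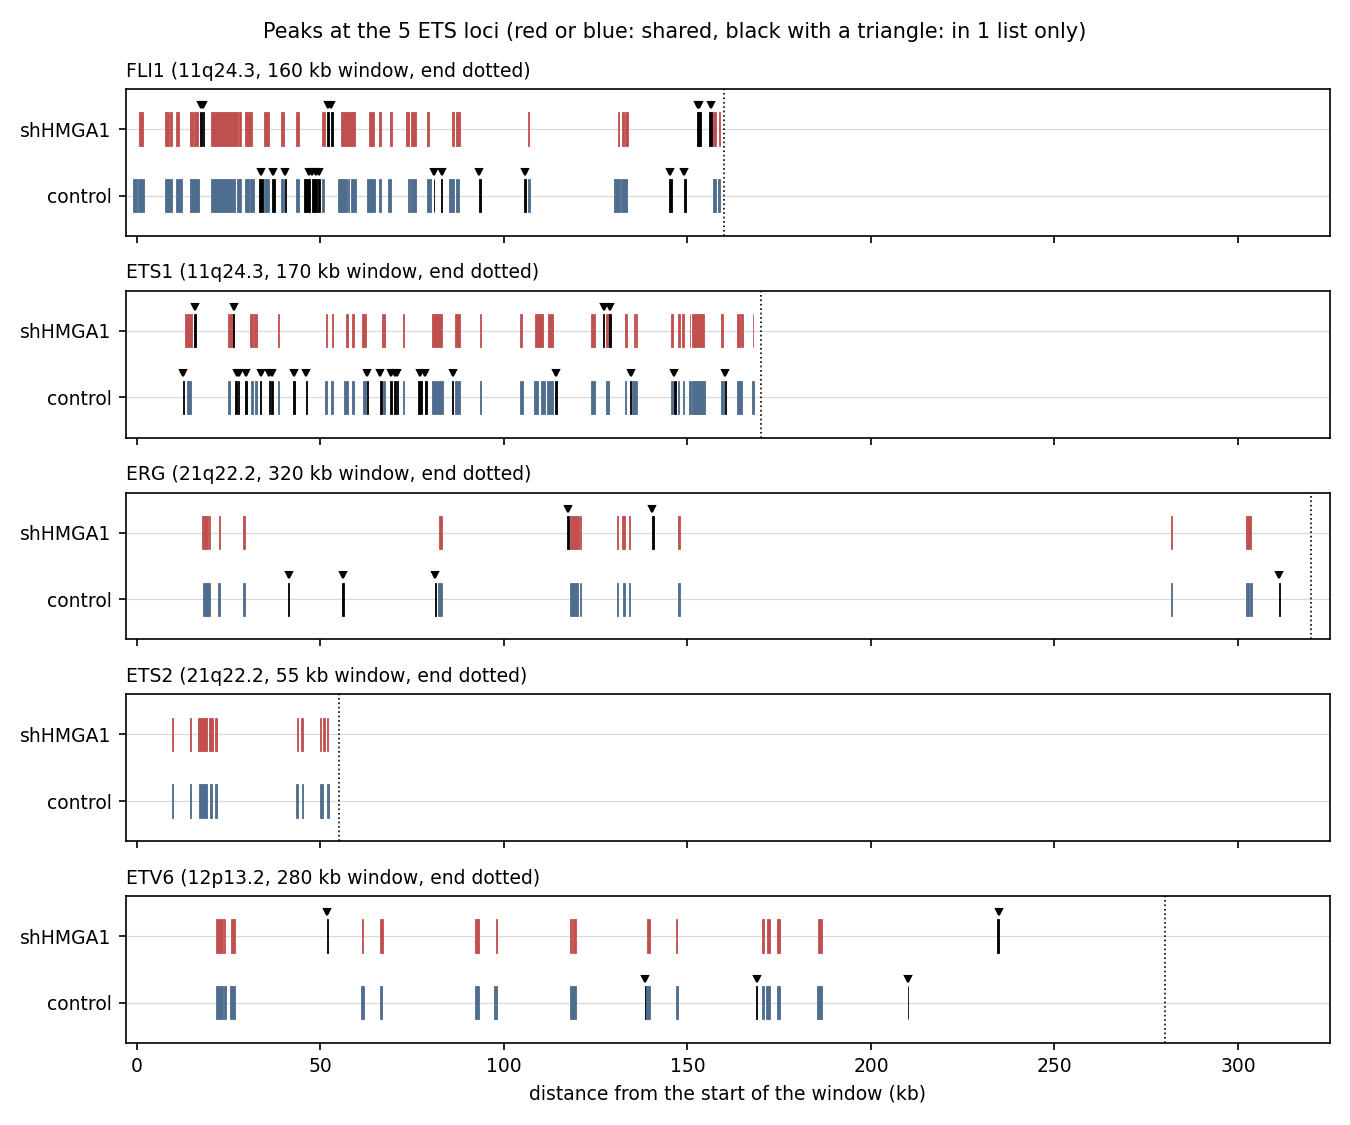
Map of the peaks at each locus, by distance from the start of its window in kb, with shHMGA1 above control. Red and blue boxes are peaks that overlap a peak of the other list, and black boxes with a triangle are peaks of 1 list only. FLI1 and ETS1 carry most of the peaks, 7 and 4 of the black boxes in shHMGA1, and 13 and 21 of them in control.

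FLI1 and ETS1 together had 74 peaks in shHMGA1 and 95 in control cells, a ratio of 0.779 (interval 0.567 to 1.07). ERG and ETS2 together had 26 and 28, a ratio of 0.929 (0.523 to 1.64). The covered length at the 11q genes was 66.1 kb in shHMGA1 and 86.9 kb in control, a ratio of 0.761, with mean widths of 893 and 915 bp. The 21q genes were covered over 17.1 and 17.4 kb (0.984, mean widths 659 and 622 bp) and ETV6 over 12.8 and 14.6 kb (0.876, mean widths 753 and 859 bp). The whole-list ratio of covered length was 0.909. The 11q interval of the ratio of peak numbers included 1, and the difference between the arms was not tested. Both 11q genes also lie in a distal 11q block already known from these lists to hold fewer shHMGA1 peaks, so the direction there is no independent observation.

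Peaks of 1 list only made up the gap in peak numbers, since shared peaks numbered 102 in shHMGA1 and 99 in control over the 5 loci. The gap in covered length was not split by sharing, and shared peaks also differed in width. Across the 5 loci 15 of 117 shHMGA1 peaks (12.8%, interval 7.36 to 20.3) had no control peak overlapping by 1 bp, against a background of 14.8% of all shHMGA1 peaks. Of the control peaks 41 of 140 (29.3%, 21.9 to 37.6) had no shHMGA1 peak, against a background of 24.9%. ETS1 held 21 of those 41, or 39.6% of its 53 control peaks (26.5 to 54.0). The share over all of chromosome 11, 29.9%, lay inside that interval. With a partner within 500 bp, 71.7% of ETS1 control peaks were matched (57.7 to 83.2), an interval that held the whole-list value of 78.8%. Only 4 of 37 shHMGA1 peaks of ETS1 were unshared (10.8%, 3.03 to 25.4). FLI1 had 7 of 37 unshared shHMGA1 peaks (18.9%, 7.96 to 35.2) and 13 of 42 unshared control peaks (31.0%, 17.6 to 47.1), both near background.

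**Figure D2:**
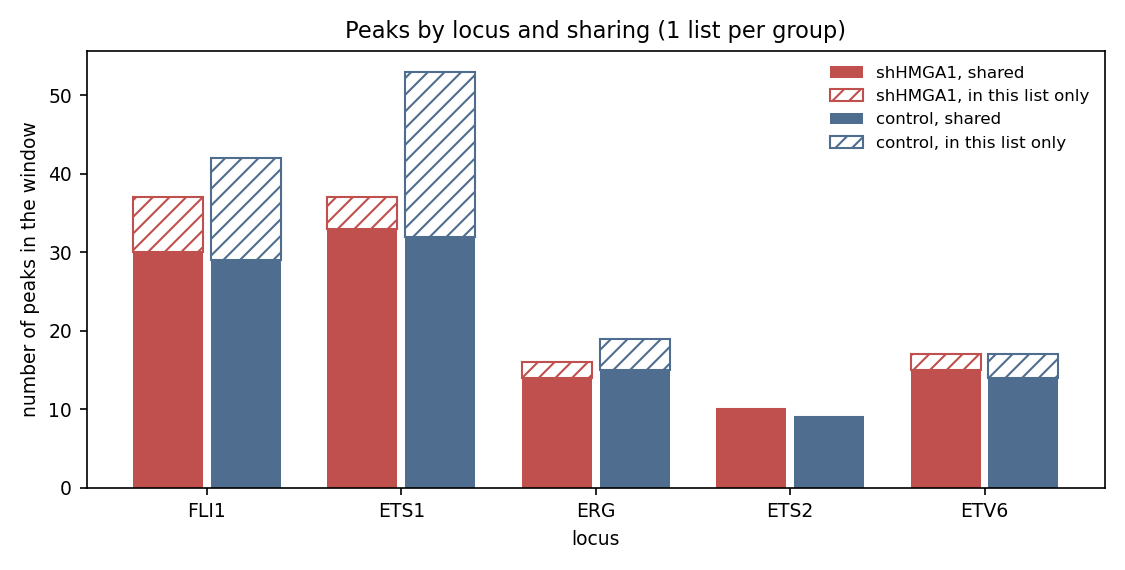
Number of peaks in the window of each locus, shHMGA1 left of control, split into shared peaks (solid) and peaks of 1 list only (hatched). Shared numbers were close at every locus (30 and 29 at FLI1, 33 and 32 at ETS1), and the hatched parts differ most at ETS1, with 4 and 21.

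At the remaining genes the counts of unshared peaks were small. ERG had 2 of 16 shHMGA1 peaks and 4 of 19 control peaks in 1 list only, and ETV6 had 2 of 17 and 3 of 17. ETS2 had none in either list, 0 of 10 in shHMGA1 and 0 of 9 in control, where the exact intervals reach 30.8% and 33.6%. The backgrounds of 14.8% and 24.9% lay inside those intervals. Among unshared peaks, control-only ones were 34 of 45 at the 11q genes (75.6%, 60.5 to 87.1), 4 of 6 at the 21q genes (66.7%, 22.3 to 95.7) and 3 of 5 at ETV6 (interval 14.7 to 94.7). The whole-list value, 65.5%, lay inside all of these intervals.

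Of all bases covered by either list, both lists covered 54.2% at FLI1 and 51.9% at ETS1. The shares were 66.4% at ERG, 67.7% at ETS2 and 70.8% at ETV6, against 63.0% over the whole lists. Both 11q genes lay below the whole-list share and the other 3 genes above it. Their regions differed too: the share was 48.5% in band 11q24.3, 54.1% in 21q22.2 and 67.5% in 12p13.2. In the 500 kb on each side it was 46.7% at the 11q genes, 50.4% at the 21q genes and 65.3% at ETV6. Each gene lay above its band and these flanks, but the 60 kb between ETS1 and FLI1 had 64.1%, more than either gene. These shares have no counting interval, since bases of a peak are not independent.

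FLI1 carried the broadest and largest accessible domain of the 5 loci. In shHMGA1 cells a single peak at chr11:128560045-128567417 was 7373 bp wide, and in control cells the peak at chr11:128560080-128566594 was 6515 bp wide. Its column 7 value, deposited by the authors and read here as the area under the peak's significance curve, was 32562 in the shHMGA1 list and 31963 in the control list. By that area it ranked 82 of 112610 shHMGA1 peaks and 95 of 127153 control peaks. The area grows with width and depth, so it ranks peaks within a list and is not compared between lists. This 1 peak held 41.5% of the summed area of FLI1 in shHMGA1 and 29.6% in control. Its end in shHMGA1 also overlapped the start of the next control peak, 1026 bp wide at chr11:128567243-128568268.

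The most significant summit of FLI1 lay elsewhere, about 8 kb into the window. The peak there was 1060 bp wide in shHMGA1 (chr11:128547766-128548825, summit −log10 p 14.7) and 1811 bp wide in control (chr11:128547748-128549558, 15.7). The control peak also overlapped the next shHMGA1 peak, 455 bp wide at chr11:128549110-128549564. At FLI1, 5 of 29 shared control peaks overlapped 2 shHMGA1 peaks, where the background was 4.77% of shared control peaks overlapping several. In the other direction 3 of 30 shared shHMGA1 peaks of FLI1 overlapped 2 control peaks, against 4.36%.

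ETS1 had the most significant peak of any of these genes. It lay at chr11:128390497-128393194 in shHMGA1 (2698 bp, summit −log10 p 20.7, area 12064) and at chr11:128390277-128393508 in control (3232 bp, 23.3, area 14891). By summit it ranked 420 in the shHMGA1 list and 202 in the control list. A wider peak near the end of the window measured 3233 bp in shHMGA1 (chr11:128461353-128464585) and 3425 bp in control (chr11:128461354-128464778), with starts 1 base apart. Both sites were shared, and no control-only peak of ETS1 had a summit above 6.67.

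ERG had a pair of peaks of similar width. The first was 1706 bp in shHMGA1 (chr21:39747672-39749377, area 6307) and 1670 bp in control (chr21:39747908-39749577, area 7471). The other was 1816 bp in shHMGA1 (chr21:39848002-39849817, area 6136) and 1828 bp in control (chr21:39847992-39849819, area 8262). By area the first led in the shHMGA1 list and the other in the control list. No peak of either list lay in the 134 kb of ERG from chr21:39877885 to 40011612. That was the longest peak-free stretch of the 5 windows, where ETV6 had 45.0 kb, FLI1 23.0 kb, ETS2 21.6 kb and ETS1 12.5 kb.

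ETS2 rested on 1 site. Its peak was 2360 bp wide in shHMGA1 (chr21:40176680-40179039, summit −log10 p 15.4, area 10531) and 2272 bp wide in control (chr21:40176842-40179113, 16.8, area 11428). It held 77.9% of the summed area of ETS2 in shHMGA1 and 77.8% in control, where the largest peaks of the other loci held from 22.6 to 41.5%. The remaining ETS2 peaks all had areas below 1000: the shHMGA1 median over the locus was 326 and the control median 428. Only 1 ETS2 peak in each list passed the median summit −log10 p of both lists joined, 5.24.

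The median area of ETV6 peaks was 1044 in shHMGA1 and 1293 in control, the highest median of the 5 loci in each list, and its median width was 839 and 840 bp. The largest was 1855 bp wide in shHMGA1 (chr12:11801506-11803360, area 7386) and 1910 bp wide in control (chr12:11801506-11803415, area 6936), beginning at the same base. The most significant was 922 bp wide in shHMGA1 (chr12:11951630-11952551, summit −log10 p 11.1) and 979 bp wide in control (chr12:11951419-11952397, 10.2). At ETS1, by contrast, median areas were 354 in shHMGA1 and 448 in control, so its many peaks were mostly small.

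**Figure D3:**
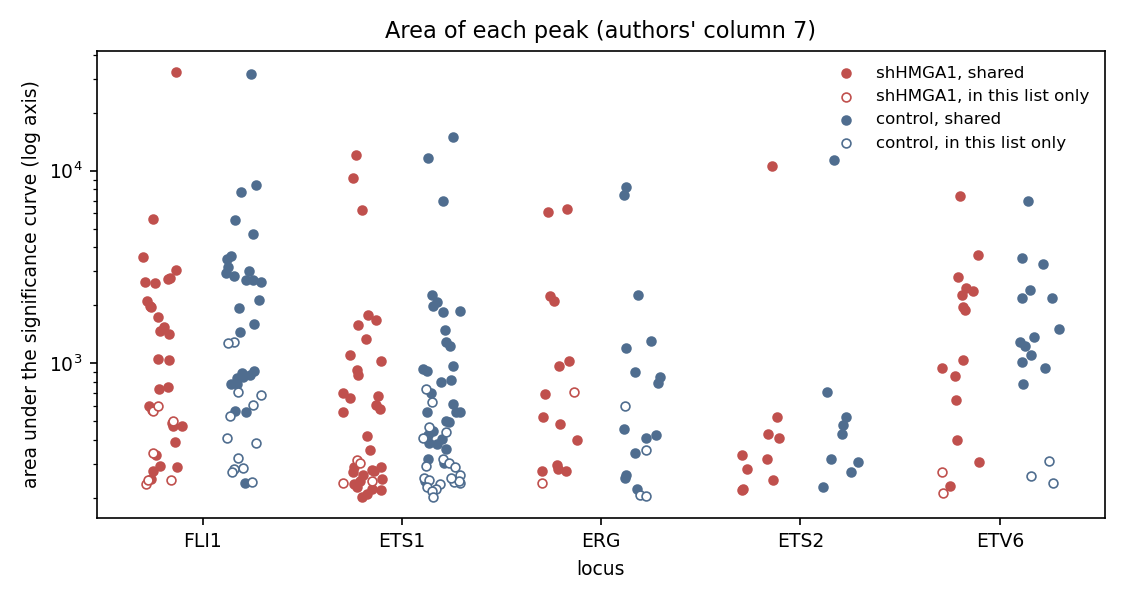
Area under the significance curve of each peak (log axis), by locus, shHMGA1 left of control, filled for shared peaks and open for peaks of 1 list only. The largest points are at FLI1 (32562 in shHMGA1 and 31963 in control), and ETS2 has 1 point far above its others (10531 in shHMGA1 and 11428 in control).

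Unshared peaks were mostly those with weak summits. Above the joined median summit, 0 of 29 shHMGA1 peaks of the 11q genes were unshared (interval 0 to 11.9%), and 4 of 39 control peaks were (10.3%, 2.87 to 24.2), against backgrounds of 1.49% and 4.01% for such strong peaks. Below it, 11 of 45 shHMGA1 peaks (24.4%, 12.9 to 39.5) and 30 of 56 control peaks (53.6%, 39.7 to 67.0) were unshared, against 27.9% and 46.0%. The background lay inside the 11q interval in each of these 4 classes. The 21q genes had 1 unshared shHMGA1 peak of 11 and 0 unshared control peaks of 11 above the median, and 1 of 15 and 4 of 17 below it.

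The strong unshared peaks can be named. At ETS1 the control-only peak chr11:128424009-128424374 had the highest summit of any unshared peak here, −log10 p 6.67, with the nearest shHMGA1 peak 763 bp away. FLI1 had 3 control-only peaks above the joined median. The 1030 bp peak chr11:128573340-128574369 (5.61) lay only 134 bp from an shHMGA1 peak, and the 176 bp peak chr11:128620848-128621023 (5.57) lay 1237 bp away. The 702 bp peak chr11:128684992-128685693 (5.31) was the most isolated, 6931 bp from the nearest shHMGA1 peak. One strong peak ran the other way: at ERG the 439 bp peak chr21:39870344-39870782 was called in shHMGA1 only (5.71), 6131 bp from any control peak. Apart from the ERG peak, which the naming rule gave as the largest unshared one, and the first FLI1 peak, these were picked after their values were seen.

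By area, the largest control-only peak of ETS1 was chr11:128386447-128387716, 1270 bp wide with an area of 735 but a summit of only 4.39. At ERG it was chr21:39785765-39786368 (604 bp, area 597) and at ETV6 chr12:11989951-11990118 (168 bp, area 310). The largest shHMGA1-only peaks were chr11:128695739-128696631 at FLI1 (893 bp, area 598), chr11:128325484-128326099 at ETS1 (616 bp, area 313) and chr12:12014462-12015010 at ETV6 (549 bp, area 274).

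Runs of at least 3 neighbouring unshared peaks of the same list were found at FLI1, ETS1 and ERG, and how common such runs are over all peaks was not computed. At FLI1, 4 control-only peaks followed each other from chr11:128585532 to 128589773, with summits from 3.58 to 4.24 and no shHMGA1 peak among them. Near the end of the same window, 3 shHMGA1-only peaks lay between chr11:128692625 and 128696631, with summits from 3.51 to 4.18. The lists thus differed in both directions within 1 gene window. ETS1 had 3 such control-only runs, each of 3 peaks, starting at chr11:128336805, 128343582 and 128378872. ERG had 1, of 3 peaks spread from chr21:39771231 to 39811429. In the 20 kb from 60 to 80 kb into the ETS1 window there were 3 shHMGA1 peaks and 10 control peaks. Of those control peaks 7 were control-only, where the background was 24.9% of all control peaks. In the 20 kb from 120 to 140 kb the order was the other way, with 7 shHMGA1 and 5 control peaks. Both stretches were picked after their values were seen.

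FLI1 peaks that matched one to one were mostly narrower in shHMGA1, as seen in 17 of 20 pairs (85.0%, interval 62.1 to 96.8), against a background of 54.6% of all such pairs. The median log2 width ratio of shHMGA1 over control was -0.41, with an order-statistic interval of -0.82 to -0.05, against -0.03 over all pairs. The surroundings leaned the same way: in band 11q24.3, 144 of 210 pairs were narrower (68.6%, 61.8 to 74.8; median -0.13), and in the 11q flanks 54 of 84 (64.3%, 53.1 to 74.5; median -0.11). Under the alternative settings the FLI1 median ran from -0.64 to -0.20. ETV6 had 11 of 13 pairs narrower (84.6%, 54.6 to 98.1), an interval that reached the background, and a median of -0.21 (-0.94 to -0.04). Its median was -0.07 with the joined median summit (-0.94 to 0.06) and with equal numbers of peaks (-0.94 to 0.60). With a partner within 500 bp it was -0.23 (-0.94 to 0.06). Each of these intervals included 0, and those of the other settings with a median lay below 0. ETS1 had 16 of 28 pairs narrower (57.1%, 37.2 to 75.5) and a median of -0.06, ERG 6 of 11 and -0.00, and ETS2 3 of 8 and 0.04. The FLI1 and ETS1 intervals overlap, the ETS1 median was -0.32 with a partner within 500 bp (-0.86 to -0.01), and the difference between loci was not tested. The median distance between the summits of a pair was 24 bp at FLI1, 17 bp at ETS1 and ERG, 13 bp at ETV6 and 188.5 bp at ETS2. It was 20 bp over all pairs and 28 bp over chromosome 21, and the ETS2 value rests on 8 pairs.

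**Figure D4:**
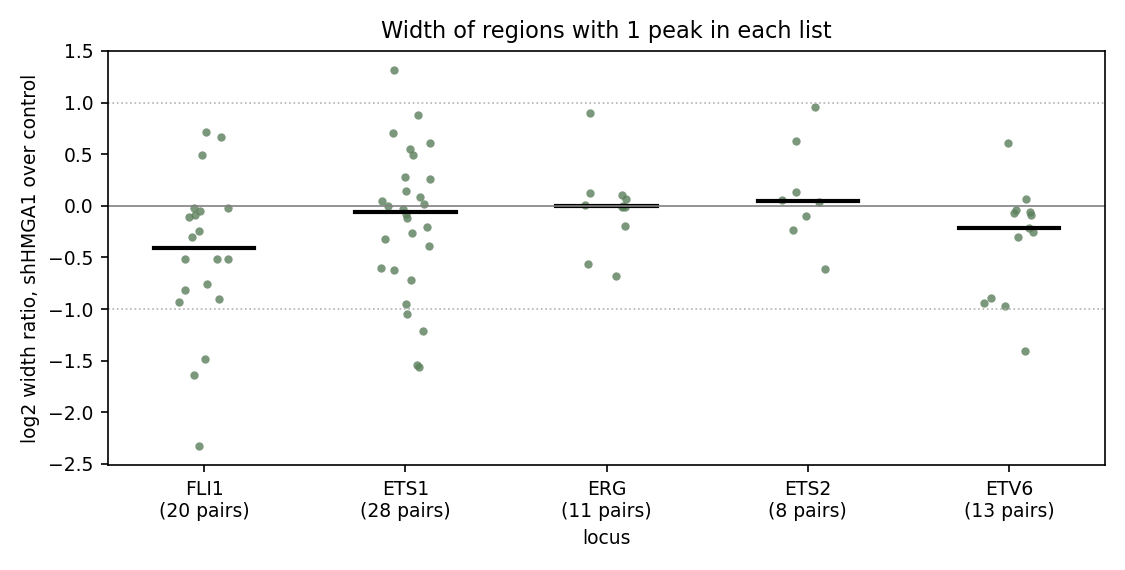
Log2 ratio of peak widths, shHMGA1 over control, for each region with 1 peak in each list. Bars are medians and dotted lines mark a 2-fold difference. The FLI1 median is -0.41 and the ETV6 median -0.21, and the other 3 medians lie between -0.06 and 0.04.

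A FLI1 region was 284 bp wide in shHMGA1 (chr11:128670987-128671270) and 1429 bp wide in control (chr11:128670050-128671478), a log2 ratio of -2.33. In all, 3 of 20 FLI1 pairs, 4 of 28 ETS1 pairs, 1 of 13 ETV6 pairs and none of the 19 pairs of ERG and ETS2 were at least 2-fold narrower, against a background of 5.39%. The strongest at ETS1 was 206 bp in shHMGA1 and 606 bp in control (-1.56), and the ETV6 one was 210 and 556 bp (-1.40). A single pair was at least 2-fold wider, against a background of 3.65%: an ETS1 region of 1332 bp in shHMGA1 (chr11:128334756-128336087) and 534 bp in control (chr11:128334753-128335286). The most different pair at ERG was 366 bp in shHMGA1 and 196 bp in control (0.90), and at ETS2 881 bp in shHMGA1 and 455 bp in control (0.95). One of the FLI1 pairs straddled the start of the window, with its shHMGA1 peak outside it.

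The flanks of the 11q genes also held fewer shHMGA1 than control peaks. In the 500 kb on each side of the ETS1 and FLI1 windows there were 131 shHMGA1 and 196 control peaks, a ratio of 0.668 (interval 0.532 to 0.838). There 19 shHMGA1 peaks (14.5%, 8.96 to 21.7) and 94 control peaks (48.0%, 40.8 to 55.2) were unshared, against backgrounds of 14.8% and 24.9%. At the 11q genes themselves 35.8% of control peaks were unshared (26.2 to 46.3), and the intervals overlap. The 60 kb between the windows had 17 peaks in each list. Around the 21q genes the flanks held 64 shHMGA1 and 65 control peaks (0.985, 0.686 to 1.41), with 19 unshared in each list, and around ETV6 they held 25 and 25, with 5 unshared in each. The gap in peak numbers at 11q was thus also present outside FLI1 and ETS1.

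**Figure D5:**
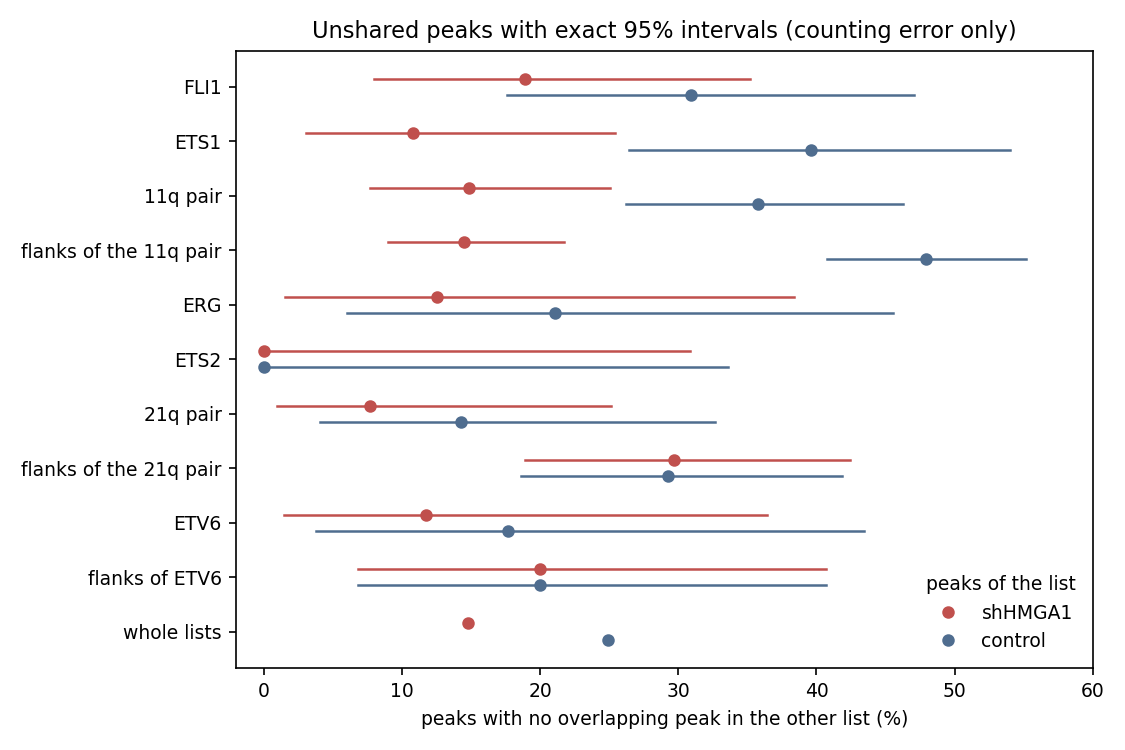
Percentage of peaks without an overlapping peak in the other list, shHMGA1 above control, for each locus, each pair, the 500 kb on each side and the whole lists. Lines are exact 95% intervals. The control value is 35.8% at the 11q pair and 48.0% in its flanks, and 24.9% over the whole list.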

How the data were processed

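Tagmentation used 50000 cells and 2 µl of Tn5 (45 min, 37 °C), per the labels' protocols. The submitters' processing notes name Genrich and hg19. No version, aligner, filter or way of combining 3 samples into 1 list is given there. The names of the lists (Con, shHMGA1) set their group. SET-2 cells, which the series text mentions, are not named in the labels of the samples used here. Whether SET-2 libraries entered the lists is not stated.

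The authors deposited narrowPeak lists. The deposited signal (column 7), made by the authors' peak caller, fits an area under the curve of significance along the peak, a reading based on the values. Its minimum was just above 200.0 in both lists. The deposited summit value is an unadjusted −log10 p. The deposited score, capped at 1000, was not used to compare. Column 9 is -1 throughout.

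A peak belonged to a locus if any base overlapped its window, and was shared if it had 1 bp or more in common with a peak called in the other group. Regions with exactly 1 peak in each list gave width ratios. The interval of a ratio of peak numbers comes from the exact interval of the shHMGA1 share of the peaks, taking the lists as independent counts. Intervals of a median are order-statistic intervals. Sharing and widths were tested on simulated lists with known states. Bands come from the table of the R package circlize. The software was Python 3.11.15 with scipy 1.17.1, pandas 2.3.3, numpy 2.4.6 and, for plots, matplotlib 3.10.9.

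The loci, lists and windows were chosen with earlier results of these data known. For each locus and list the text names the peak with the largest area, the most significant, the widest, the largest unshared one and the pair with the largest width change. Peak positions relative to genes, and a list of other ETS genes, were not analysed here because no hg19 gene positions were used.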

Additional observations from a re-analysis of the deposited data

How the results depend on the processing

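The alternatives were a reciprocal overlap of 50%, a partner within 500 bp, the joined median summit of 5.24 as a threshold on both lists, equal numbers of the most significant peaks, merging within 150 bp, the summit in the window, windows widened by 50 kb and, chosen after seeing the data, filtering the counted list alone. For the 11q genes, the 21q genes and ETV6, 102 recomputed values did not change to the opposite side and stayed within the counting interval (for covered length, within 1.5 times). Another 14 moved further and 6 reversed. Values exactly at a ratio of 1 or a control-only share of 50% counted as not reversed, as with the joined median at the 21q genes. The ETV6 ratio of peak numbers, 1.00, had no side to keep. For single genes of the pairs the numbers were 130, 18 and 8. At the 11q genes the ratio of peak numbers ran from 0.722 to 0.879 and that of covered length from 0.761 to 0.829, and control-only peaks stayed the majority of unshared peaks.

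The share of 11q shHMGA1 peaks overlapped was 60.8% with reciprocal overlap, 93.1% with the joined median and with equal numbers, and 100% when that list alone was filtered. Over the whole shHMGA1 list it was 70.4% with reciprocal overlap, 89.7% with the joined median, 85.0% with equal numbers and 98.5% when filtered alone. For 11q control peaks it was 47.4% with reciprocal overlap (37.0 to 57.9), 81.8% with equal numbers and 89.7% when filtered alone. The values of the whole control list were 62.3%, 84.5% and 96.0%, and the first lay above the 11q interval. Filtering the counted list made 100% of the 11q unshared peaks control-only, from 4 peaks, against 75.5% over the whole lists. At the 21q genes, equal numbers left 11 shHMGA1 and 10 control peaks, a ratio of 1.10, with a covered-length ratio of 1.04, 100% of control peaks overlapped and 0% of unshared peaks control-only. Filtering alone also gave 100% and 0%, from 1 unshared peak, and the joined median a covered-length ratio of 1.02. The whole-list control-only share was 50.8% with equal numbers and 75.5% with filtering alone. At ETV6 the joined median and filtering alone each gave 100% of shHMGA1 peaks overlapped, and filtering alone 100% of control peaks. The control-only share there was 100% with the joined median and 42.9% with widened windows, from 4 and 7 unshared peaks. With the joined median the whole-list share was 70.7%.

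For single genes, equal numbers reversed the covered-length ratio of ETS1 (1.06) and, at ERG, the ratio of peak numbers (1.11), the covered length (1.04) and the control-only share (0%, also when filtered alone). That share rested on 1 unshared peak each time, and the whole-list shares were 50.8% and 75.5%. The joined median gave a covered length of 1.01 at ERG, and reciprocal overlap and merging both gave a median log2 width ratio of 0.012 there. The cause of these shifts was not tested. With the summit required in the window, the FLI1 median width ratio was -0.30. No paired analysis was possible because single samples have no values in the lists, so no replicate could be left out either. Unknown depth limits every count of weak peaks.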

Other observations

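Peaks in the upper area range of each list were counted, and a difference between loci was not tested. Of the peaks of all 5 loci, 9 of 117 in shHMGA1 and 12 of 140 in control were in the top 10% of their list by area. By definition that class holds 10% of all peaks, and both counts were near that share. FLI1 had 2 such peaks in shHMGA1 and 5 in control, ETS1 3 and 3, ERG 2 and 2, ETS2 1 and 1, and ETV6 1 and 1. These positions within lists of different length show no change by themselves.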
